A study of Homo sapiens with 18 samples.

Results

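The SRSF and HNRNP genes, which encode the classical SR proteins and most heterogeneous nuclear ribonucleoproteins (hnRNPs), were examined in bladder cancer cells with and without knockdown of ACAT1, the mitochondrial acetyl-CoA acetyltransferase. Members were the rows of the count table whose symbol was SRSF or HNRNP followed by letters and digits, without rows named as pseudogenes. This rule gave 36 genes of the 39496 rows, 12 SRSF and 24 HNRNP, and left out 121 pseudogene rows of the same names, of which 73 were named for HNRNPA1. RNA was sequenced from 2 established human bladder transitional cell cancer lines, UM-UC-3 and T24, both labelled wild type. Cells of each line received the control siRNA siNC or 1 of 2 siRNAs to ACAT1, siACAT1-1 or siACAT1-2, giving 6 groups of 3 libraries and 18 libraries in all. The siRNAs were transfected transiently, every group including the controls was transfected, and each line stands for 1 tumor. The labels call the libraries biological replicates 1 to 3 and do not say whether they came from separate cultures, so p-values measure the spread between these libraries.

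Library totals ran from 25163490 to 34417230 counts. ACAT1 was reduced in all 12 knockdown libraries. Its mean level in UM-UC-3 was 46.0 ± 1.68 RPKM (reads scaled for gene length and library size; SD, n = 3) with siNC, 3.05 ± 0.703 with siACAT1-1 and 2.16 ± 0.544 with siACAT1-2. In T24 the corresponding means were 16.2 ± 1.40, 1.29 ± 0.149 and 0.792 ± 0.122 RPKM. Of 14 urothelial and epithelial markers in the table, 3 reached 1 RPKM in UM-UC-3 (KRT7, KRT8 and KRT18) and 6 in T24 (those 3, KRT19, PPARG and EPCAM), whereas CDH1, KRT5, UPK1B and UPK3A were at or near 0 in both lines. The summed marker level was 130 to 210 RPKM in UM-UC-3 libraries and 301 to 1100 RPKM in T24 libraries. Of 9 markers of immune, endothelial and fibroblast cells, CD68 and COL1A1 reached 1 RPKM, and PTPRC and CD3E were at or near 0. CD68, a lysosomal protein used as a macrophage marker, had 126 to 216 RPKM in UM-UC-3 and 15.7 to 169 RPKM in T24, and COL1A1 had at most 1.62 RPKM. The summed level of the 9 markers was 128 to 218 RPKM in UM-UC-3 and 17.4 to 170 RPKM in T24.

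SR proteins bind exonic enhancer sequences through RNA recognition motifs and recruit the spliceosome through their arginine and serine rich domain. SRPK and CLK kinases phosphorylate that domain, and transportin 3 (TNPO3) carries the proteins into the nucleus. The hnRNPs coat nascent pre-mRNA and often oppose SR proteins by binding silencer sequences. They also take part in mRNA export, stability and translation. Many genes of both families control their own level through exons or introns whose inclusion leads the transcript to nonsense-mediated decay.

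Short sequences are shown here because they lie in the transcript of the member that differed most between the siRNAs, HNRNPA0, and in the target ACAT1. The 7-mer CTAGCAA occurs in the coding sequence of ACAT1 and in the 3′ untranslated region (UTR) of 7 of the 36 members: HNRNPA0, SRSF10, SRSF11, SRSF8, HNRNPA1, HNRNPU and HNRNPUL2. It was chosen with earlier results of these data known, and was searched on the transcribed strand of the GENCODE v44 canonical transcripts on GRCh38. The siRNA sequences were not used here. Of 19527 genes with a 3′ UTR, 6.66% hold the 7-mer. HNRNPA0 has a 3′ UTR of 7498 bases with 2 copies, at positions 288 and 4664. SRSF10 also has 2 copies, at positions 1859 and 5927 of a 3′ UTR of 6795 bases. Windows of SRSF10, HNRNPU and HNRNPUL2 are not shown. All lines read 5′ to 3′ on the transcribed strand, and capitals mark the 7-mer.
ACAT1, coding sequence, chr11:108146266-108146294, + strand: gtctggttgtaCTAGCAAacattaaaatg
HNRNPA0, 3′ UTR position 288, chr5:137752844-137752872, − strand: tcgtttttataCTAGCAAaatgtcttgtt
HNRNPA0, 3′ UTR position 4664, chr5:137748468-137748496, − strand: ggtgggacagaCTAGCAAaaggcatactt
SRSF11, 3′ UTR, chr1:70252281-70252309, + strand: cccacctatatCTAGCAAatttatatttt
SRSF8, 3′ UTR, chr11:95069402-95069430, + strand: ttatacctttaCTAGCAAagggaaaaata
HNRNPA1, 3′ UTR, chr12:54286038-54286066, + strand: actaggaactgCTAGCAAgtatagcgcga
Around the 7-mer, HNRNPA0 (position 288) and SRSF8 share the run of 10 bases TACTAGCAAA with ACAT1. The other HNRNPA0 copy and the SRSF10 copy at position 5927 share 9 bases. The SRSF10 copy at position 1859, SRSF11, HNRNPU and HNRNPUL2 share 8, and HNRNPA1 shares the 7 alone.

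Promoters were searched for the E-box CACGTG, the core site of MYC and related factors, because ACAT1 was studied for its relation to c-Myc signaling. The motif is its own reverse complement, so 1 search covers both strands. RefSeq promoters (GRCh38.p14, 250 bases before to 50 bases after the start) were found for 34 members, with 48 promoters. The E-box letters occurred in 7 of these 34 members (20.6%: HNRNPA3, HNRNPD, HNRNPDL, HNRNPH2, HNRNPH3, HNRNPM and HNRNPUL1) and in 8.77% of 27305 genes. By promoter, the letters occurred in 8 of the 48 member promoters, beside 7.26% of all 35116 promoters. The windows below belong to members described in the comparisons, read 5′ to 3′ on the strand of the gene, and have the motif in capitals. For HNRNPH2, upstream and downstream give the order of the copies. These begin at −42 and −9 from the transcription start, both before it.
HNRNPH3, chr10:68331631-68331660, + strand: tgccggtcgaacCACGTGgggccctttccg
HNRNPUL1, chr19:41262568-41262597, + strand: aacctctgggccCACGTGagtgtctgtccc
HNRNPD, chr4:82374001-82374030, − strand: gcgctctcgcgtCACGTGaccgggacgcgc
HNRNPH2, upstream, chrX:101408168-101408197, + strand: ccgagagttgctCACGTGaccgagatctca
HNRNPH2, downstream, chrX:101408201-101408230, + strand: gacgtaggcgctCACGTGattactcgctta
HNRNPA3, chr2:177212711-177212740, + strand: cggaaaacgcgtCACGTGacgactggcccc
These matches describe letters only. In the edgeR fit with replicate number as a block, HNRNPH3, HNRNPUL1 and HNRNPD were called lower on average after knockdown and HNRNPH2 higher. The other members with the letters were not called in that fit. Their log2 fold changes were −0.17 for HNRNPA3 (adjusted p = 0.0748), −0.18 for HNRNPDL (adjusted p = 0.0732) and 0.005 for HNRNPM (adjusted p = 0.993). A relation of the letters to these changes was not tested.

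The members made up 2.14% to 3.35% of all counts in a library. In the siNC groups they took 3.26 ± 0.105% of counts in UM-UC-3 and 2.85 ± 0.268% in T24 (SD, n = 3). With siACAT1-1 these shares were 2.96 ± 0.146% and 2.49 ± 0.211%, and with siACAT1-2 they were 2.99 ± 0.157% and 2.40 ± 0.241%. The groups were not tested on this share, and the ranges of siNC and knockdown libraries overlapped except for siACAT1-1 in UM-UC-3. In RNA from whole cultures, fewer cells that express a gene and less RNA of it per cell cannot be told apart.

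On the RPKM scale, which corrects for gene length, HNRNPA1 was by far the most abundant member. HNRNPA1, which silences exons and shuttles between nucleus and cytoplasm, lies at chr12:54280193-54287088 on the + strand and had a mean of 1415 RPKM over the 18 libraries (642 to 2496). That level was above 99.8% of the genes tested, and HNRNPA1 held 15.5% to 46.1% of the summed member RPKM of a library. HNRNPA2B1, its close relative in the A/B group, followed at 517 RPKM (381 to 645). HNRNPA3 had 285 RPKM (181 to 427) and HNRNPM, which binds GU-rich sequence, had 268 RPKM (215 to 334). At the other end were the paralogs of HNRNPC known as HNRNPCL1, HNRNPCL2 and HNRNPCL4, with means of 0.138, 0.152 and 0.0397 RPKM. HNRNPA0, which binds AU-rich elements in mRNAs, was also low for an hnRNP at 2.66 RPKM (0.724 to 4.05).

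Among SR proteins, SRSF11 was the most abundant with 161 RPKM (106 to 198). SRSF1, the prototype SR protein and a known oncogene, had 92.4 RPKM (50.1 to 150). SRSF5 had 85.3 RPKM (44.5 to 123) and SRSF4 had 69.9 RPKM (44.4 to 95.2). The lowest were SRSF2 at 10.7 RPKM (4.18 to 21.2), SRSF8 at 3.42 RPKM and SRSF12 at 0.00427 RPKM. SRSF12 was at 0 in 14 libraries, all 9 T24 libraries among them. SRSF12, HNRNPCL1, HNRNPCL2 and HNRNPCL4 had 10, 80, 93 and 19 counts in all 18 libraries together and did not pass the filter on low counts. The other 32 members, 11 SRSF and 21 HNRNP, were tested among 20144 genes.

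Changes were tested with edgeR on the counts, and calls required a p below 0.05 after adjustment over all genes. Libraries with the same replicate number deviated together within each cell line, so results are also given with replicate number as a block (the blocked fit). The comparisons of siACAT1-1 and of siACAT1-2 with siNC in a line use the same siNC libraries. Counts of members at an unadjusted p, or by DESeq2 or limma, are given without the share of all genes. They are therefore not set against a background. Fold changes below are on the log2 scale with their standard error (SE).

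HNRNPA0 was the member with the clearest change, and it fell with siACAT1-2 in both cell lines. The gene lies at chr5:137745651-137754376 on the − strand and shares no exon bases with another gene of the count table. In UM-UC-3 the 3 siNC libraries had 3.95, 4.05 and 3.54 RPKM. The siACAT1-2 libraries had 1.52, 1.93 and 1.70 RPKM and the siACAT1-1 libraries had 2.80, 3.99 and 3.34 RPKM. All siACAT1-2 libraries were below every other UM-UC-3 library, while siACAT1-1 overlapped siNC. In T24 the siNC libraries had 3.25, 2.85 and 3.27 RPKM. The siACAT1-2 libraries had 1.03, 0.724 and 1.01 RPKM and the siACAT1-1 libraries had 2.91, 2.73 and 3.26 RPKM. The groups again separated for siACAT1-2 and overlapped for siACAT1-1.

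**Figure D1:**
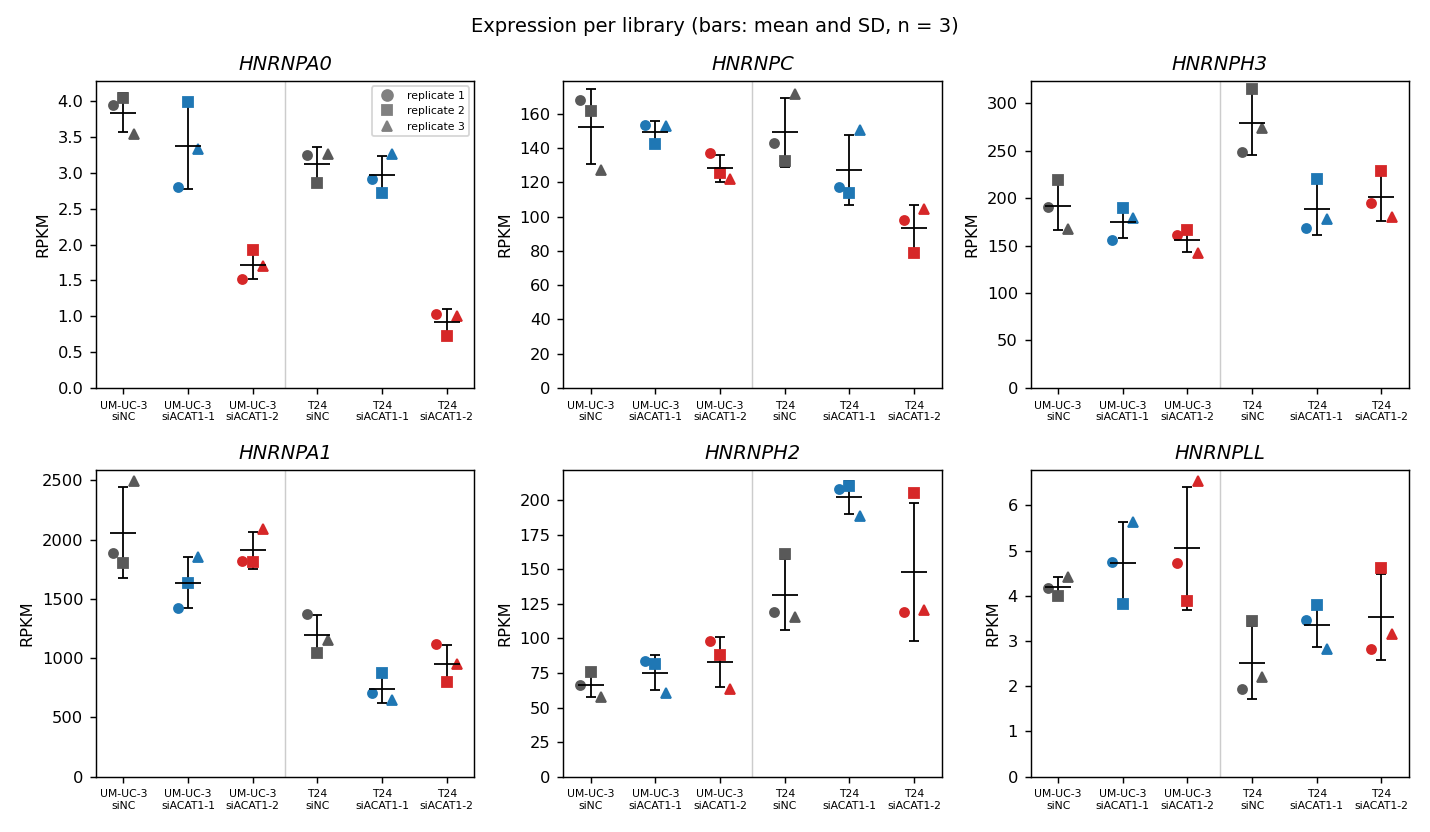
RPKM of HNRNPA0, HNRNPC, HNRNPH3, HNRNPA1, HNRNPH2 and HNRNPLL (y axis, linear) in the 6 groups of cell line and siRNA (x axis). Each marker is a library, its shape gives the replicate number, and bars show the mean and SD (n = 3); HNRNPA0 lies between 0.724 and 1.93 RPKM in the 6 siACAT1-2 libraries and between 2.73 and 4.05 RPKM in the 12 others.

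The log2 fold change of HNRNPA0 with siACAT1-2 was −1.20 in UM-UC-3 (SE 0.20, adjusted p = 0.0299) and −1.73 in T24 (SE 0.20, adjusted p = 0.00053). With the block the values were −1.21 (SE 0.13, adjusted p = 2.97e-05) and −1.75 (SE 0.13, adjusted p = 1.47e-07). With siACAT1-1 the log2 fold change was −0.19 in UM-UC-3 and −0.07 in T24, and neither was called in the blocked fit (adjusted p = 0.420 and 0.806). Directly compared, HNRNPA0 was lower with siACAT1-2 than with siACAT1-1 over both lines (−1.34, SE 0.14, adjusted p = 0.000105). In T24 alone this difference was −1.67 (SE 0.20, adjusted p = 0.00133). In UM-UC-3 alone it was −1.02 (SE 0.20, adjusted p = 0.0996) without the block and −1.01 (SE 0.13, adjusted p = 0.000168) with it. The UM-UC-3 difference from siNC depended on single libraries without the block: it stayed past the threshold in 7 of 18 fits that each left out 1 library (adjusted p = 0.0178 to 0.284), and was lost without any of the UM-UC-3 siNC or siACAT1-2 libraries, without siACAT1-1 replicate 1 or 3 of UM-UC-3, and without T24 siNC replicate 3, siACAT1-1 replicate 1 or siACAT1-2 replicate 3. With the block it stayed past it in 18 of 18. The T24 difference stayed past the threshold in 18 of 18 fits of either kind. Fitted on the 9 libraries of a line alone, without the block, both calls were lost at nearly the same size, with −1.20 in UM-UC-3 (adjusted p = 0.0729) and −1.75 in T24 (adjusted p = 0.0522), as was the T24 difference between the siRNAs (−1.69, adjusted p = 0.0945).

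Because HNRNPA0 holds the 7-mer shown above, the same comparison was read over all genes as a description. The 7-mer was chosen with earlier results of these data known, so the shares below are not a test of it. Genes with and without it were not matched for 3′ UTR length. Between the siRNAs in both lines, 99 of 972 tested genes with the 7-mer in the 3′ UTR were lower with siACAT1-2 (10.2%, median log2 fold change −0.18). Of 12041 tested genes without it, 143 were lower (1.19%, median 0.02). In the blocked comparison of siACAT1-2 with siNC, the shares lower were 5.76% with and 0.515% without the 7-mer in UM-UC-3, and 14.8% and 3.88% in T24. For siACAT1-1 they were 0.926% and 1.39% in UM-UC-3 and 6.28% and 9.04% in T24. Higher with siACAT1-1 in the blocked fit were 3.70% of genes with and 2.5% without the 7-mer in UM-UC-3, and 12.4% and 8.22% in T24. In the blocked fit over both lines, HNRNPA0 and SRSF11 were called lower with siACAT1-2 than with siACAT1-1, and HNRNPA1 was called higher. The HNRNPA1 call was kept in 10 of 18 fits with 1 library left out. The other members with the 7-mer were not called: SRSF8 (−0.11, adjusted p = 0.497), SRSF10 (−0.08, adjusted p = 0.502), HNRNPU (−0.19, adjusted p = 0.0531) and HNRNPUL2 (0.02, adjusted p = 0.880). Against siNC, SRSF11 was not called with siACAT1-2 (blocked adjusted p = 0.705 in UM-UC-3 and 0.271 in T24). Whether the 7-mer has a part in these differences was not tested.

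In UM-UC-3 with siACAT1-1, none of the 32 members was called in either fit, beside 0.00993% of all genes without the block and 3.06% with it. At an unadjusted p under 0.05, 1 member passed without the block and 3 with it, and DESeq2 and limma called 0. The shares of all genes for these counts are not given. The lowest log2 fold change was that of SRSF2 (−0.48, SE 0.53, adjusted p = 0.992; blocked −0.47, SE 0.16, adjusted p = 0.103). Its siNC libraries had 10.6, 21.2 and 9.71 RPKM and its siACAT1-1 libraries 8.13, 14.5 and 7.03 RPKM, so that each siACAT1-1 library was below the siNC library of its number while the groups overlapped. The highest was HNRNPH2 (0.17, SE 0.22, adjusted p = 0.996). The median over the 32 members was −0.08, against −0.01 over all genes, and 23 of 32 were below zero, as were 51.3% of all genes. Leaving out 1 library moved the member median from −0.16 (without UM-UC-3 siACAT1-1 replicate 2) to 0.02 (without siACAT1-1 replicate 3), so its direction rested on single libraries.

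With siACAT1-2 in UM-UC-3, HNRNPA0 was the 1 member called in both fits, beside 0.0546% of all genes and 1.36% with the block. The median over members was −0.17, against 0.00 over all genes, and 24 of 32 were below zero. The median lay between −0.29 (without UM-UC-3 siNC replicate 3) and −0.04 (without siACAT1-2 replicate 3). At an unadjusted p under 0.05, 2 members passed without and 12 with the block. These counts have no share of all genes beside them and are not read as particular to the members.

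With siACAT1-1 in T24, no member was called without the block (0.124% of all genes), and 6 passed at an unadjusted p under 0.05. DESeq2 called 3 members and limma called 0. The shares of all genes for these 2 methods and for the unadjusted p are not given, so the counts are not set against a background. With the block 9 of 32 members were called, 7 lower and 2 higher, beside 13.9% of all genes (7.31% lower and 6.59% higher). All 9 were HNRNP genes. A difference between the families was not tested.

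HNRNPA1 was lower with siACAT1-1 in T24. Its siNC libraries had 1376, 1045 and 1156 RPKM and its siACAT1-1 libraries 709, 873 and 642 RPKM, without overlap. The blocked log2 fold change was −0.66 (SE 0.13, adjusted p = 0.00216; −0.69 and adjusted p = 0.158 without the block). HNRNPA1L2, a near-identical copy of HNRNPA1 with which reads may be shared, changed by −0.44 (SE 0.12, adjusted p = 0.0211 with the block). HNRNPH3, of the G-run binding H/F group, had 249, 315 and 274 RPKM with siNC and 169, 220 and 178 RPKM with siACAT1-1, again without overlap (−0.55, SE 0.10, adjusted p = 0.00156; without the block adjusted p = 0.156). HNRNPUL1, which also acts at DNA breaks, had 36.5, 28.6 and 34.5 RPKM with siNC and 21.8, 26.1 and 20 RPKM with siACAT1-1 (−0.53, SE 0.12, adjusted p = 0.00747; 0.173 without the block). The ranges of HNRNPUL1 did not overlap.

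In the same comparison HNRNPH2 was higher. It lies at chrX:101408295-101414133 on the + strand and shares 16.3% of its exon bases with a readthrough transcript from RPL36A. Its siNC libraries had 119, 161 and 115 RPKM and its siACAT1-1 libraries 208, 210 and 189 RPKM, so all 3 were above the highest siNC library. The blocked log2 fold change was 0.65 (SE 0.12, adjusted p = 0.00138; 0.64 and adjusted p = 0.259 without the block). HNRNPLL, known for regulated splicing of CD45 in lymphocytes, had 1.93, 3.43 and 2.20 RPKM with siNC and 3.46, 3.79 and 2.82 RPKM with siACAT1-1 (0.46, SE 0.14, adjusted p = 0.0306 with the block). For HNRNPLL the groups overlapped although each siACAT1-1 library was above the siNC library of its number. HNRNPAB (−0.35, adjusted p = 0.0278) and HNRNPUL2 (−0.31, adjusted p = 0.0351) were the other named members lower with the block, and HNRNPDL was the ninth called. HNRNPUL2 shares 44.5% of its exon bases with a readthrough transcript on the same strand.

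The blocked count of 9 members ran from 3 to 11 when 1 library at a time was left out. It was 3 without T24 siNC replicate 1, siACAT1-1 replicate 1 or siACAT1-1 replicate 3, and 5 without siNC replicate 3. HNRNPA1, HNRNPH3 and HNRNPH2 were called in 18 of 18 such fits. HNRNPUL1 was called in 15, and HNRNPA1L2, HNRNPAB, HNRNPUL2 and HNRNPLL in 14. The median over members was −0.09, against 0.00 over all genes, with 21 of 32 below zero, beside 49.9% of all genes. It ran from −0.20 (without T24 siACAT1-1 replicate 1) to 0.02 (without siACAT1-1 replicate 2), and from −0.17 to −0.08 with the block.

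**Figure D2:**
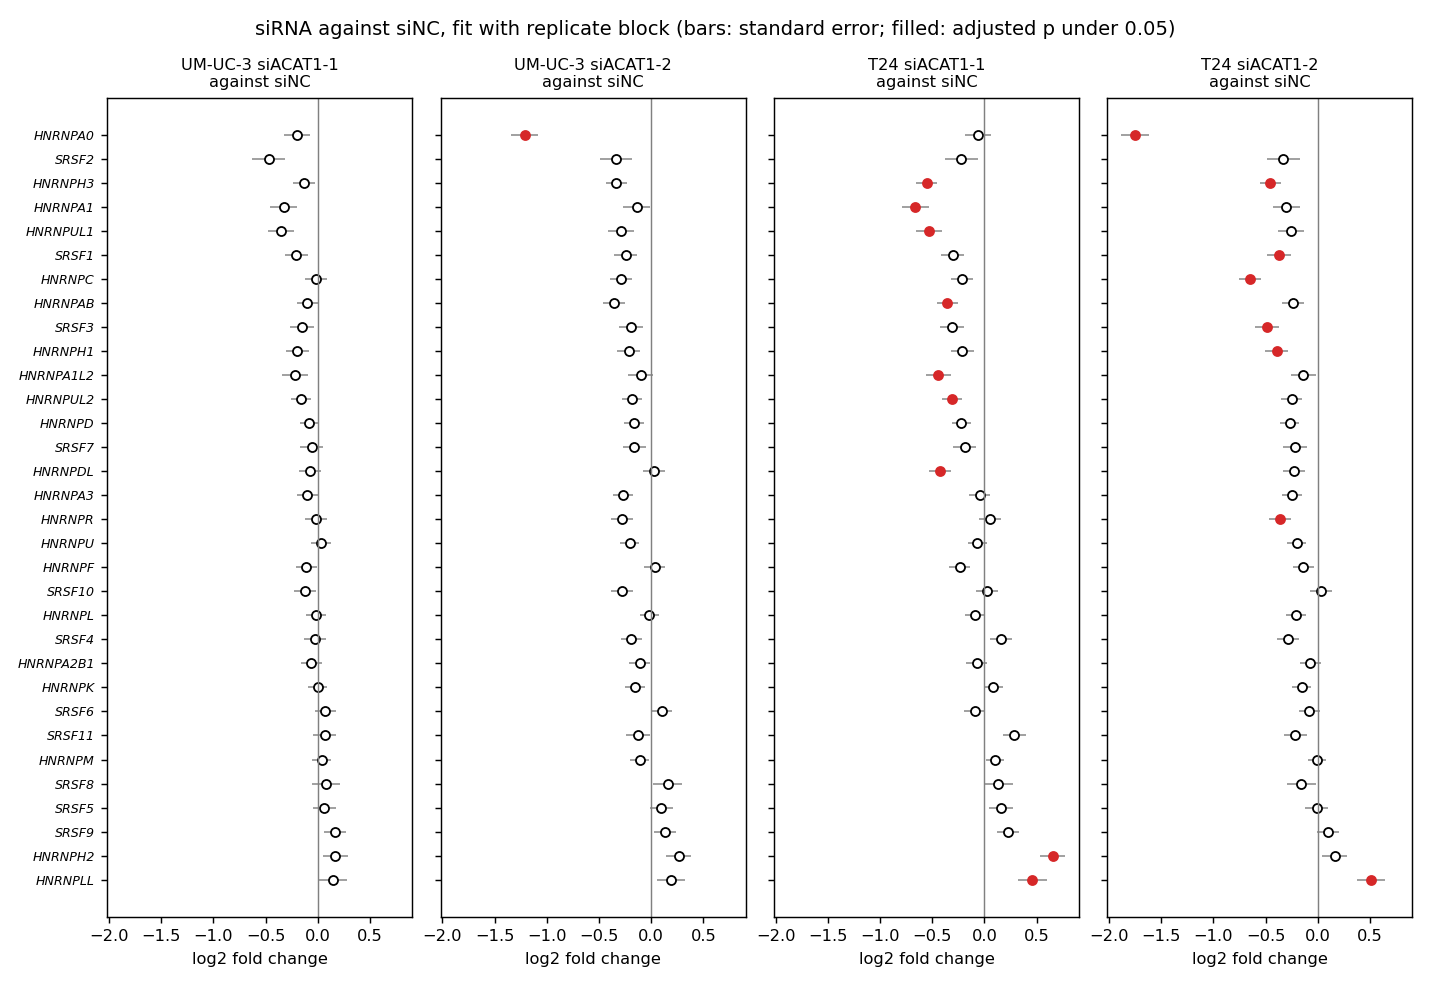
Log2 fold change against siNC (x axis) of the 32 tested members (y axis) in the 4 comparisons of an siRNA with siNC, from the blocked fit. Points show the estimate and bars the SE, and red filled points have an adjusted p under 0.05: 0 and 1 in UM-UC-3 and 9 and 8 in T24, with HNRNPA0 lowest in both siACAT1-2 panels.

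With siACAT1-2 in T24, HNRNPA0 was the 1 member called without the block (0.268% of all genes). With the block 8 members were called, 7 lower and 1 higher, beside 8.48% of all genes (3.93% lower and 4.55% higher). HNRNPC, which packages pre-mRNA as a tetramer and binds uridine tracts, lies at chr14:21209136-21269494 on the − strand. It had 143, 133 and 172 RPKM with siNC and 97.9, 78.6 and 104 RPKM with siACAT1-2. The ranges did not overlap, and the blocked log2 fold change was −0.65 (SE 0.11, adjusted p = 0.000645; adjusted p = 0.200 without the block). HNRNPH3 had 194, 228 and 180 RPKM with siACAT1-2, all below its siNC libraries (−0.45, SE 0.10, adjusted p = 0.00888 with the block). HNRNPR, which has a known role in neuronal mRNA transport, had 87.0, 73.2 and 72.1 RPKM with siNC and 57.5, 60.0 and 60.0 RPKM with siACAT1-2, also without overlap (−0.36, SE 0.11, adjusted p = 0.0359 with the block).

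The SR proteins SRSF3 and SRSF1 were lower in the blocked fit. SRSF3, the smallest SR protein and an adaptor for mRNA export, had 31.7, 26.5 and 35.2 RPKM with siNC and 25.9, 14.4 and 27.3 RPKM with siACAT1-2 (−0.49, SE 0.11, adjusted p = 0.0101). SRSF1 had 104, 59.5 and 107 RPKM with siNC and 72.6, 50.1 and 80.6 RPKM with siACAT1-2 (−0.37, SE 0.11, adjusted p = 0.0410). For both genes the groups overlapped and each siACAT1-2 library was below the siNC library of its number. Without the block their adjusted p-values were 0.733 and 0.810. HNRNPH1, whose product binds G runs, changed by −0.39 (SE 0.11, adjusted p = 0.0291) and HNRNPLL by 0.51 (SE 0.14, adjusted p = 0.0241), both with the block.

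Leaving out 1 library at a time moved the blocked count of 8 between 4 and 11. It was 4 without T24 siNC replicate 1 or siACAT1-2 replicate 2 or 3, and 5 without siNC replicate 2 or 3 or siACAT1-2 replicate 1. HNRNPC was called in 18 of 18 such fits, HNRNPH3 in 17, SRSF3 in 16, HNRNPLL in 14, HNRNPR and HNRNPH1 in 13 and SRSF1 in 11. The median over members was −0.23, against 0.01 over all genes, and 28 of 32 were below zero, as were 47.7% of all genes. It lay between −0.34 (without T24 siNC replicate 2) and −0.11 (without T24 siNC replicate 1). At an unadjusted p under 0.05, 4 members passed without and 19 with the block. The share of all genes at that threshold is not given here, so these counts are not read as particular to the members.

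Averaged over the 4 comparisons, more members were called lower than higher, and the count rested on the block. Without it HNRNPA0 was the 1 member called (−0.80, SE 0.12, adjusted p = 0.00753), beside 0.223% of all genes, and this call was lost without T24 siNC replicate 1 (adjusted p = 0.0529). With the block 14 of 32 members were called, 12 lower and 2 higher, beside 12.4% of all genes (6.46% lower and 5.95% higher). The 12 lower were SRSF1, SRSF2, SRSF3, HNRNPA0, HNRNPA1, HNRNPAB, HNRNPC, HNRNPD, HNRNPH1, HNRNPH3, HNRNPUL1 and HNRNPUL2, and the 2 higher were HNRNPH2 and HNRNPLL. The median over members was −0.16, against −0.00 over all genes, and 25 of 32 members were below zero, as were 50.2% of all genes. With 1 library left out the median lay between −0.20 and −0.09, the latter without T24 siNC replicate 1 or UM-UC-3 siNC replicate 2. The average joins unequal parts, since HNRNPA0 was called with siACAT1-2 and not with siACAT1-1.

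HNRNPH3 changed by −0.37 on average (SE 0.06, adjusted p = 0.000752 with the block, 0.126 without). HNRNPA1 changed by −0.36 (SE 0.08, adjusted p = 0.00483 with the block, 0.258 without). SRSF2, an SR protein recurrently mutated in myeloid neoplasms, changed by −0.34 (SE 0.09, adjusted p = 0.0225 with the block, 0.735 without). HNRNPUL2 changed by −0.23 (SE 0.06, adjusted p = 0.0148) and HNRNPD, also called AUF1 and known for AU-rich mRNA decay, by −0.18 (SE 0.06, adjusted p = 0.0357), both with the block. The 2 that rose were HNRNPH2 (0.31, SE 0.07, adjusted p = 0.00861) and HNRNPLL (0.33, SE 0.08, adjusted p = 0.0143). The blocked count was 8 to 16 with 1 library left out, with 8 reached without T24 siNC replicate 1. HNRNPA0, HNRNPH3 and HNRNPA1 were called in 18 of 18 such fits and HNRNPD in 7. HNRNPH2 and HNRNPH1 are close paralogs, so reads may be split between them. Cell type markers moved beside the members in the blocked fit: CD68 was higher on average (0.51), and KRT7 (−0.33), KRT18 (−0.31) and KRT8 (−0.19) were lower. In single comparisons, KRT19 (−1.14), KRT7 (−0.68) and KRT18 (−0.33) were lower in T24 with siACAT1-1, CD68 (1.05) and KRT8 (0.35) were higher in T24 with siACAT1-2, and KRT8 and KRT18 were lower in UM-UC-3 with either siRNA to ACAT1. No marker was called without the block in the comparisons of siRNA with siNC, and the part of these changes in the members' levels was not tested.

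The knockdown effect, averaged over both siRNAs to ACAT1, was not shown to differ between the lines for any member. In the test of UM-UC-3 minus T24, 0 of 32 members were called in either fit, beside 0.0% of all genes without and 0.104% with the block. At an unadjusted p under 0.05, 0 members passed without and 3 with the block, and DESeq2 with or without the block and limma called 0. Shares of all genes are not given for these counts. The largest positive difference was that of HNRNPDL (0.30, SE 0.13, adjusted p = 0.460 with the block) and the most negative that of HNRNPLL (−0.31, adjusted p = 0.584). For HNRNPA0 it was 0.20 (adjusted p = 0.751). This average joins unequal siRNA effects. With the block, HNRNPA0 changed by −1.21 in UM-UC-3 and −1.75 in T24 with siACAT1-2, and by −0.20 and −0.06 with siACAT1-1. A difference between the lines for siACAT1-2 alone was not tested. The larger number of members called in T24 than in UM-UC-3 is therefore not a tested difference.

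The siRNAs to ACAT1 were also compared with each other, a contrast without the siNC groups. The siNC libraries still entered the shared estimate of the spread and, in the blocked fit, the replicate number terms. Over both lines, HNRNPA0 was the 1 member called without the block (2.56% of all genes). With the block 7 members were called, 6 lower with siACAT1-2 than with siACAT1-1 and 1 higher, beside 20.6% of all genes (10.2% lower and 10.4% higher). After HNRNPA0, the lower members were SRSF11 (−0.35, SE 0.08, adjusted p = 0.00429), HNRNPC (−0.35, SE 0.07, adjusted p = 0.00231), HNRNPR (−0.34, SE 0.07, adjusted p = 0.00311), SRSF4 (−0.31, SE 0.07, adjusted p = 0.00585) and HNRNPK (−0.20, SE 0.07, adjusted p = 0.0376). HNRNPA1 was higher (0.27, SE 0.09, adjusted p = 0.0380). HNRNPC, HNRNPR, SRSF11 and SRSF4 were called in 18 of 18 fits with 1 library left out, HNRNPA1 in 10 and HNRNPK, which binds C-rich sequence, in 8. The blocked count ran from 5 to 11 with 1 library left out, and 11 was reached without T24 siACAT1-1 replicate 2. Without the block, leaving out that library added SRSF11 and gave 2 members. The median over members was −0.07, against 0.02 over all genes, both with the block, and lay between −0.11 and −0.04 with 1 library left out. Without the block it ran from −0.16 (without T24 siACAT1-1 replicate 2) to −0.01 (without UM-UC-3 siACAT1-2 replicate 3).

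In T24, SRSF11 had 188, 126 and 182 RPKM with siACAT1-1 and 106, 120 and 118 RPKM with siACAT1-2. SRSF4 had 77.5, 49.4 and 95.2 RPKM with siACAT1-1 and 55.4, 44.4 and 58.3 RPKM with siACAT1-2. In both genes each siACAT1-2 library was below the siACAT1-1 library of its number. The groups of SRSF11 did not overlap and those of SRSF4 did. HNRNPA1 in T24 had 709, 873 and 642 RPKM with siACAT1-1 and 1118, 798 and 947 RPKM with siACAT1-2, so libraries with number 2 went the other way from those with numbers 1 and 3.

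Within T24, HNRNPA0 was called without the block (0.968% of all genes), and the blocked fit called 6 members, each lower with siACAT1-2, beside 14.7% of all genes. They were HNRNPA0 (−1.69, SE 0.14, adjusted p = 1.81e-07), SRSF11 (−0.50, adjusted p = 0.00560), HNRNPH2 (−0.49, adjusted p = 0.00911), SRSF4 (−0.45, adjusted p = 0.00698), HNRNPC (−0.43, adjusted p = 0.00880) and HNRNPR (−0.41, adjusted p = 0.0121). This count was 1 without siACAT1-1 replicate 3, 3 without siACAT1-1 replicate 1 or siACAT1-2 replicate 1, and up to 9 otherwise. Without the block, SRSF11 was the other member called without siACAT1-1 replicate 2 (2 members in all). Within UM-UC-3, 0 members were called without the block (0.0496% of all genes; 1 member at an unadjusted p under 0.05, DESeq2 1, limma 0). HNRNPA0 alone was called with the block, beside 8.15% of all genes.

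Without the block, the cell lines differed in more members than any comparison of siRNAs. Between the siNC groups, 10 of 32 members were called, 7 higher in UM-UC-3 and 3 higher in T24, beside 44.3% of all genes (22.0% higher and 22.3% lower in UM-UC-3). The share of members called was 31.25%, and its difference from that of all genes was not tested. The block raised the count to 12, with HNRNPH1 and HNRNPR added, beside 47.9% of all genes. Across the lines, libraries of the same number did not deviate together, so these added calls rest on a block without a basis in the data. The median log2 difference over members was 0.26, against 0.03 over all genes, and ran from 0.05 without T24 siNC replicate 2 to 0.39 without UM-UC-3 siNC replicate 3.

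HNRNPA1 was higher in UM-UC-3, where the siNC libraries had 1885, 1798 and 2496 RPKM against 1376, 1045 and 1156 RPKM in T24 (0.82, SE 0.20, adjusted p = 0.00263). HNRNPLL was higher as well, with 4.17, 4.0 and 4.42 RPKM against 1.93, 3.43 and 2.20 RPKM (0.79, SE 0.23, adjusted p = 0.00905). SRSF8, an SR protein gene related to SRSF2, had 3.58, 3.97 and 4.54 RPKM against 2.40, 2.15 and 3.06 RPKM (0.71, SE 0.22, adjusted p = 0.0155). For these 3 genes the lines did not overlap. SRSF10, which represses splicing when dephosphorylated, had 25.1, 29.7 and 18.6 RPKM against 19.7, 12.2 and 13.8 RPKM (0.72, SE 0.28, adjusted p = 0.0470), and here 1 UM-UC-3 library lay within the T24 range. HNRNPL, which binds CA repeats, differed by 0.39 (SE 0.14, adjusted p = 0.0392). HNRNPA1L2 and SRSF11 were also called higher in UM-UC-3.

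Higher in T24 were HNRNPH2, HNRNPA3 and HNRNPH3. HNRNPH2 had 66.3, 76.1 and 57.5 RPKM in UM-UC-3 and 119, 161 and 115 RPKM in T24 (−0.93, SE 0.22, adjusted p = 0.00251). HNRNPA3 had 255, 246 and 215 RPKM in UM-UC-3 and 427, 365 and 329 RPKM in T24 (−0.61, SE 0.19, adjusted p = 0.0171). HNRNPH3 had 190, 219 and 167 RPKM in UM-UC-3 and 249, 315 and 274 RPKM in T24 (−0.49, SE 0.16, adjusted p = 0.0178). None of the 3 overlapped between the lines. HNRNPA1 and HNRNPH2 were called in 18 of 18 fits with 1 library left out, HNRNPH3 and HNRNPLL in 17, HNRNPA3 and SRSF8 in 16, HNRNPL in 5 and SRSF10 in 4. The count of 10 fell to 5 without T24 siNC replicate 2 and to 6 without T24 siNC replicate 3.

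**Figure D3:**
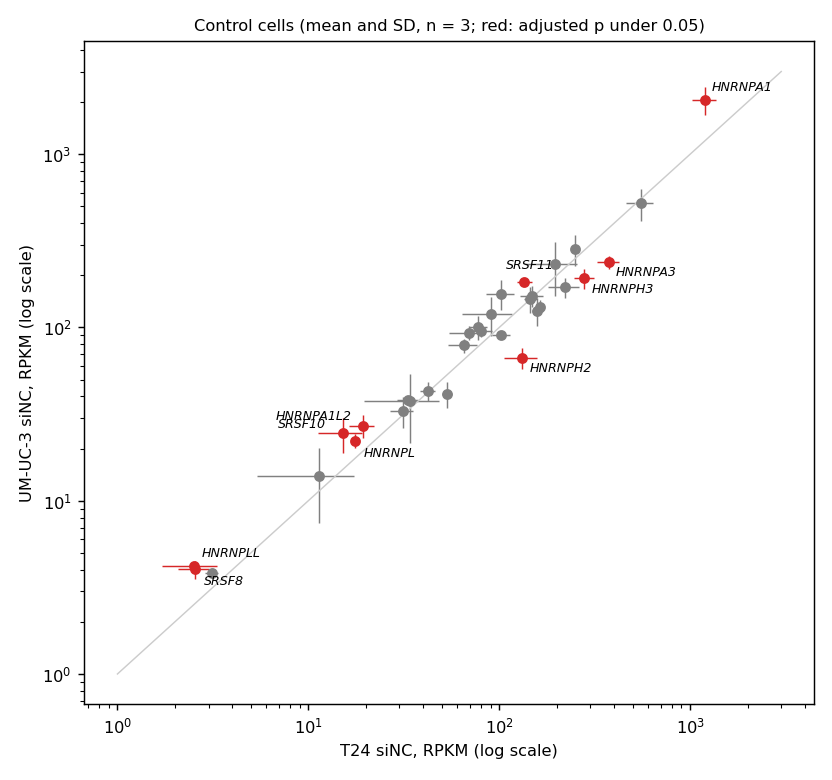
Mean RPKM of the members in the siNC libraries of T24 (x axis, log scale) and UM-UC-3 (y axis, log scale), with SD bars (n = 3) and a line of equal level. Red points have an adjusted p under 0.05 between the lines: HNRNPA1, HNRNPA1L2, HNRNPL, HNRNPLL, SRSF8, SRSF10 and SRSF11 lie above the line, and HNRNPH2, HNRNPA3 and HNRNPH3 below it.

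For most members, as for most genes, the replicate number accounted for more of the variation within a cell line than the siRNA did. The share of the variance of log2 CPM (counts scaled to the library total) over the 9 libraries of a line was computed for each gene. In UM-UC-3 the median member had 65.1% of its variance between replicate numbers (2.57% to 95.9%), against 38.4% for all genes, and 15.8% between siRNAs, against 25.3%. In T24 these medians were 64.7% (4.73% to 95.9%) against 44.4%, and 28.2% against 25.2%. The share of the number was above that of the siRNA in 25 of 32 members in UM-UC-3, beside 58.4% of all genes. In T24 it was above in 20 of 32 members, beside 61.4% of all genes, so there the members were near the share of all genes. SRSF7, an SR protein that also serves mRNA export, was extreme, with 95.9% of its variance between numbers in each line and 1.53% and 2.49% between siRNAs. HNRNPA0 was at the other end, with 90.1% and 94.1% between siRNAs. HNRNPH3 had 44.2% and 82.3%, HNRNPUL1 74.7% and 59.3%, and HNRNPC 50.1% and 65.0% of variance between siRNAs.

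**Figure D4:**
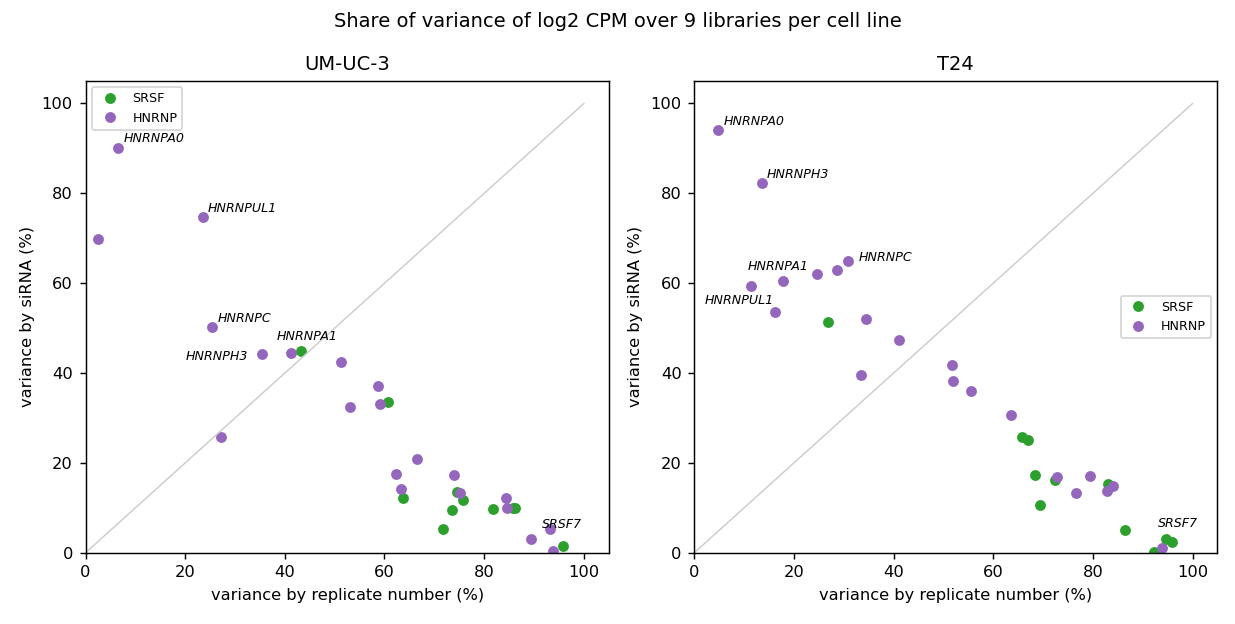
Percent of the variance of log2 CPM of each member that lies between replicate numbers (x axis) and between siRNAs (y axis), over the 9 libraries of UM-UC-3 (left) and T24 (right); SRSF genes are green and HNRNP genes purple. HNRNPA0 lies at the top left (90.1% and 94.1% between siRNAs) and SRSF7 at the lower right (95.9% between numbers in both lines).

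The libraries that stood apart were those with number 3 in UM-UC-3 and number 2 in T24, a choice made after their values were seen. SRSF7 had 20.2, 19.7 and 21.4 RPKM in the replicate 3 libraries of UM-UC-3 and 39.2 to 52.2 RPKM in the 6 others. In T24 it had 18.3, 14.4 and 17.2 RPKM in the replicate 2 libraries and 31.2 to 46.7 RPKM in the 6 others. SRSF2 in T24 had 4.82, 4.38 and 4.18 RPKM in replicate 2 and 10.3 to 16.5 RPKM in the others, a difference of −1.56 in mean log2 CPM. For each gene the low libraries were below all others, whichever siRNA they had received.

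In UM-UC-3, all replicate 3 libraries were below all 6 others in 13 of 32 members, beside 9.08% of all genes. These were SRSF1, SRSF3, SRSF7, SRSF9, SRSF10, HNRNPA2B1, HNRNPAB, HNRNPD, HNRNPH2, HNRNPK, HNRNPL, HNRNPM and HNRNPR. They were above all others in HNRNPA1L2 and SRSF8, beside 8.05% of all genes. The median difference of the replicate 3 libraries was −0.26 over members and 0.00 over all genes. In T24, all replicate 2 libraries were below all others in 11 members, beside 12.0% of all genes, and above in 0, beside 13.5%. The 11 were SRSF1, SRSF2, SRSF3, SRSF4, SRSF7, SRSF8, SRSF9, SRSF10, HNRNPA2B1, HNRNPD and HNRNPH1, with a median difference of −0.34 over all 32 members.

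HNRNPAB was 151, 158 and 128 RPKM in the replicate 3 libraries of UM-UC-3 and 192 to 310 RPKM in the 6 others. In T24 it ran from 128 to 141 RPKM in replicate 2 and from 129 to 259 RPKM in the others, so there the sets overlapped. HNRNPA1 did not follow the pattern: replicate 3 of UM-UC-3 held the highest level of each group (2496, 1851 and 2093 RPKM). Mitochondrial transcripts moved with these libraries. They took 4.34% to 5.01% of counts in replicate 3 of UM-UC-3 against 5.72% to 6.17% in the others, and 3.01% to 3.54% in replicate 2 of T24 against 4.18% to 5.28%. The part of this in the members' levels was not tested, and the labels do not say what a number marks.

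**Figure D5:**
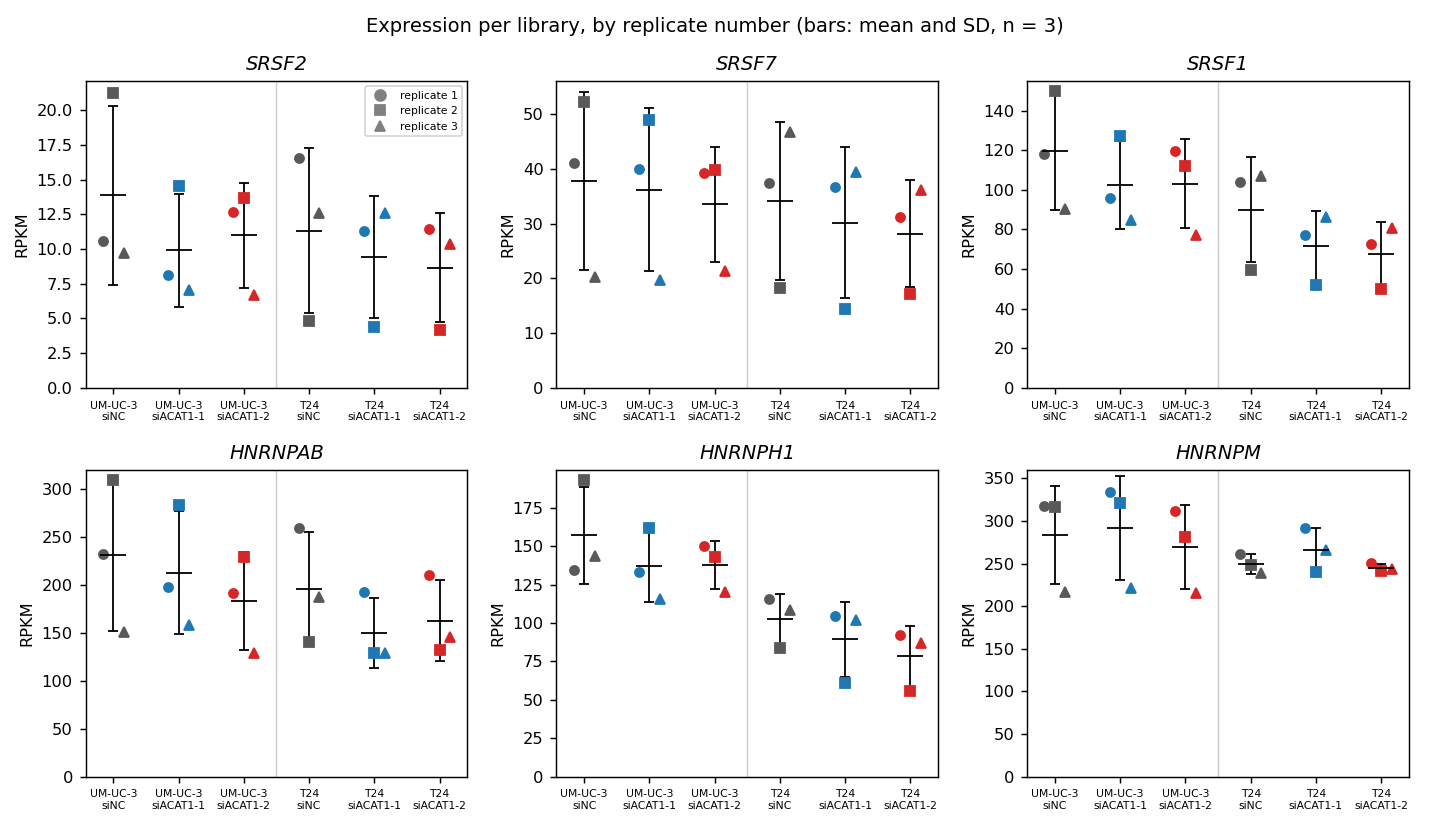
RPKM per library (y axis, linear) of SRSF2, SRSF7, SRSF1, HNRNPAB, HNRNPH1 and HNRNPM in the groups of cell line and siRNA (x axis). The marker shape gives the replicate number, and bars show the mean and SD (n = 3). SRSF7 is lowest in all 3 replicate 3 libraries of UM-UC-3 (19.7 to 21.4 RPKM) and in all 3 replicate 2 libraries of T24 (14.4 to 18.3 RPKM), whichever siRNA was used.

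Genes that act on or with the members were read as lists. Over the mean of the 4 comparisons none of the listed genes was called without the block. The counts with the block stand beside 12.4% of all genes called in that fit. There 1 of 11 genes for SR protein kinases and nuclear import was called, SRPK3, a muscle-enriched SR protein kinase (0.38, adjusted p = 0.0316). Of 17 SR-related genes, TRA2B, which binds GAA-rich enhancers, was called lower (−0.30, adjusted p = 0.00395). Of 11 hnRNP genes with other names, PTBP1, the polypyrimidine tract binding repressor, was called lower (−0.47, adjusted p = 0.000575). Of 10 nonsense-mediated decay genes, UPF3B was called lower (−0.23, adjusted p = 0.0122). Of 26 genes of core spliceosome proteins, 0 were called, with values from −0.24 for SNRPA to 0.11 for SF3B1. The list medians were between −0.09 and 0.05, against −0.00 over all genes.

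Between the siRNAs, every called gene of the kinase and import list was lower with siACAT1-2. Without the block SRPK2 (−1.09, adjusted p = 0.000173) and TNPO3 (−0.39, adjusted p = 0.0258) were lower with siACAT1-2 over both lines. With the block 7 of 11 genes were lower and 0 higher, beside the 20.6% of all genes given above, with a list median of −0.34 against 0.02 over all genes. The 7 were SRPK2, DYRK1A, CLK1, PRPF4B, TNPO3, TNPO1 and CLK2. Of the decay genes, 4 of 10 were lower with the block, led by SMG1, a kinase that phosphorylates UPF1 (−0.53, adjusted p = 0.000454). The SR-related list had 1 gene higher (RNPS1, 0.29) and 4 lower, led by RSRC2 (−0.45, adjusted p = 0.00398). Among hnRNPs with other names, 3 were higher, led by RALY (0.47, adjusted p = 0.00139), and PTBP1 was lower (−0.61, adjusted p = 0.000124). Core spliceosome genes went both ways, with SF3B5 highest (0.67, adjusted p = 0.000692) and SNRPA1 lowest (−0.51, adjusted p = 0.00155) among 3 higher and 2 lower.

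Between the siNC groups, without the block, the list counts stand beside 44.3% of all genes called (22.0% higher and 22.3% lower in UM-UC-3). The kinase and import list had SRPK2 higher in UM-UC-3 (0.67) and 2 genes lower, SRPK3 furthest (−1.79, adjusted p = 0.000792). The SR-related list had 7 higher, led by RSRC1 (1.31, adjusted p = 5.68e-05), and 2 lower, led by SON (−0.96, adjusted p = 0.00379). The decay list had 4 higher, led by UPF2 (1.10), and 1 lower, SMG8 (−0.97). The other hnRNPs had 2 higher and 3 lower, from PCBP2 (0.84) to RALY (−0.79), and the core spliceosome list had 3 higher and 5 lower, from PRPF8 (0.90) to SNRPB2 (−1.56).

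Some members share annotated exon bases with other genes, and the strand setting of the counting is not given in the sources used here. Of the 36 members, 17 share at least some bases and 5 share over 20%: SRSF9 with GATC (46.2%), HNRNPUL2 with its readthrough partner (44.5%), SRSF2 with MFSD11 (36.7%), HNRNPU with COX20 (25.8%) and SRSF1 with noncoding transcripts (23.1%). HNRNPC and HNRNPA1 share none. Rows of processed pseudogenes held counts equal to 1.87% of those of HNRNPA1, 2.97% of HNRNPC and 2.23% of HNRNPA3, so few reads were placed there, whereas HNRNPA1 and HNRNPA1L2 remain uncertain as near-identical copies.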

How the data were processed

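Polyadenylated RNA of 18 libraries was sequenced by the authors with a stranded kit that adds molecular identifiers. Per the labels and the submitters' processing notes, reads were trimmed (Trimmomatic 0.36), aligned to GRCh38 (STAR 2.5.3) and counted per gene (featureCounts of Subread 1.5.1). The authors deposited whole-number counts, which were tested here, and RPKM values, which are quoted as levels. The annotation release, strand setting, use of reads with several matches and use of the molecular identifiers in counting are not given in the sources used here.

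Groups came from the sample titles. The counts were fitted in 1 edgeR model (4.0.16, R 4.3.3, TMM, filterByExpr, quasi-likelihood test, Benjamini-Hochberg over 20144 genes) with 6 groups and 10 contrasts. Fits with and without the block were checked on simulated counts for UM-UC-3 siACAT1-1 against siNC only. No effect of replicate number was simulated, so the check does not cover that effect or the other contrasts. Alternatives were replicate number within a cell line as a block, DESeq2 1.42.0, limma 3.58.1 on log2(RPKM + 0.1), other size factors, no filter, 1 cell line alone and leaving out each library. For the comparison between cell lines, the block was the number shared by both lines.

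The pairing of libraries by number was checked on deviations from group means. Within UM-UC-3 the 9 same-number pairs correlated at 0.115 to 0.576 (median 0.433) and within T24 at 0.356 to 0.686 (median 0.524), whereas pairs with other numbers lay between −0.545 and 0.269 and between −0.567 and 0.210. Across lines the 27 same-number pairs lay between −0.327 and 0.211. The pairing comes from the data, since the labels give the numbers without saying what they mark.

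Named in a comparison were members called in either fit, or the 4 highest and 4 lowest of more than 8, and otherwise the highest and lowest. Members, gene lists, motifs and tests were chosen with earlier results of these data known. Depth limits the precision of the lowest members, and p-values cover the spread between libraries only. Pseudogene rows were left out, and 3′ UTRs with the 7-mer were taken from GENCODE v44 on GRCh38. Gene coordinates and exon overlaps came from the deposited count table.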

Additional observations from a re-analysis of the deposited data

How the results depend on the processing

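The counts of members called depended mainly on the replicate block and less on other choices. With the replicate block they became 9 (T24 siACAT1-1 against siNC), 8 (T24 siACAT1-2 against siNC), 14 (mean of the 4 comparisons), and, for siACAT1-2 against siACAT1-1, 1 in UM-UC-3, 6 in T24 and 7 over both lines. DESeq2 called 3, 2, 3, 1, 2 and 2 in the same order. DESeq2 with the block called 12, 12, 17, 2, 7 and 10, and 2 in UM-UC-3 with siACAT1-2 against siNC. Shares of all genes called are given here for edgeR without and with the block only. Counts under the other alternatives are therefore not read as particular to the members. Fitted on 1 cell line alone, the calls of HNRNPA0 were lost, with 0 in UM-UC-3 siACAT1-2 against siNC, T24 siACAT1-2 against siNC and T24 siACAT1-2 against siACAT1-1. Without a filter on low counts the UM-UC-3 comparison of the siRNAs called 1. The call counts of other comparisons moved by no more than 1.5 times, and the siNC lines had 7 without the filter, 9 with other size factors, 11 with limma and 12 with the block. Leaving out 1 library at a time, without the block, gave 0 to 1 members in UM-UC-3 siACAT1-2 against siNC, the mean of the 4 comparisons and the UM-UC-3 comparison of the siRNAs (1 without T24 siACAT1-2 replicate 2), 1 to 2 in T24 and over both lines between the siRNAs, and 5 to 11 between the siNC lines. With the block it gave 0 to 1 (UM-UC-3 siACAT1-1), 1 to 1 (UM-UC-3 siACAT1-2 against siNC and against siACAT1-1), 3 to 11, 4 to 11, 8 to 16, 1 to 9 and 5 to 11 for T24 siACAT1-1, T24 siACAT1-2, the mean, T24 between the siRNAs and both lines between the siRNAs. For the mean, 8 came without T24 siNC replicate 1, and values of 13 and 15 lay between the ends. The value of 1 in UM-UC-3 siACAT1-1 came without UM-UC-3 siACAT1-2 replicate 1 or T24 siACAT1-1 replicate 2. In T24 siACAT1-2 against siNC and the interaction, these ranges without the block were 1 to 1 and 0 to 0. Of 2016 alternative values for 51 pairs of a named gene and a comparison, 1368 kept their side of the threshold, 597 passed it newly, 51 lost it and 0 changed sign. Other size factors moved the median of all genes by at most 0.0226 on the log2 scale. The cause of these changes was not tested. With 3 libraries per group, members that miss the threshold are not shown to be unchanged.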
